A study of Mus musculus with 16 samples.

Results

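The 35 genes described here are a list of endothelial genes, read in stromal cells that had been sorted against the endothelial surface protein CD31. They were taken by symbol from the deposited table of 52459 genes, with no use of their values, and all 35 were found. RNA-seq was made from live single mouse bone marrow cells that carried CD51 and CD140a and lacked CD45, Ter119 and CD31, a gate for mesenchymal stromal cells, after enzymatic digestion of the marrow and with a low-input library kit. The mice carried the Townes sickle alleles, in which human globin genes stand in place of mouse ones, and the genotypes SS and SA were compared with 4 libraries each. SS mice were hα/hα::βS/βS, homozygous for human alpha globin and for the human Aγ and sickle beta globin genes. SA mice were hα/hα::βA/βS, with the same human alpha globin on both alleles, 1 sickle beta allele and 1 normal human beta allele. No mouse without human globin alleles was compared, no treatment was given, and the labels give no ages. Libraries are named SA1 to SA4 and SS1 to SS4, by genotype and replicate. No label says beyond the numbering that these were separate animals, so p-values measure the spread between these libraries.

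Endothelial cells line every vessel, and in bone marrow they form arterioles and wide sinusoids whose walls blood cells cross on leaving. They take up vascular endothelial growth factors (VEGFs) and angiopoietins through dedicated receptor kinases, hold together through VE-cadherin and CD31, and slow passing leukocytes with selectins. Sinusoidal cells also carry scavenger receptors, and ETS and SOX factors maintain the endothelial programme.

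These transcripts were present despite the CD31 gate, and unevenly so: many were highest in SS1, SA1 or SA2, and some of these, Kdr, Cdh5 and Plvap among them, were close to the detection floor in several other libraries. No member differed between genotypes by the test. Calcrl, Fli1, Clec14a, Emcn, Bmx, Erg and Flt4, among others, were measured in every library, including those in which Kdr and Cdh5 had almost no reads. In bulk RNA, fewer cells of a type and less RNA per cell cannot be told apart, so a high value means more of the transcript among all RNA and no more than that.

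Total counts per library ran from 24797857 to 31117007, and a floor of 3 counts per library, which covers counting error only, stands for the limit of detection. The stromal identity of the sort was seen in every library: Cxcl12, the niche chemokine, ran from 10500 to 23450 CPM (a gene's counts scaled to a common library total), Pdgfra (CD140a) from 168.6 to 480.9 and Itgav (CD51) from 252.2 to 820.5. Ptprc, which encodes the CD45 used to remove blood cells, ran from 49.7 to 748.1 CPM and was highest in SA1, SA2 and SS1. SS2 differed from the other libraries in sex transcripts, with Xist at 2076 CPM against 1.98 to 14.8 elsewhere and Ddx3y at 0.434 CPM against 79.3 to 148.5. 1 of the 2 lanes of SS4 is titled SS but labelled SA elsewhere, and both were kept with SS. Numbers in the titles that look like dates separate all SA from all SS libraries, so whatever they mark cannot be told apart from genotype. They also set SS2 apart within SS, with 28 where SS1, SS3 and SS4 have 22.

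Promoters of 4 members that were high in the same libraries, 2 VEGF receptor genes and 2 selectin genes of 1 cluster, are shown with a short ETS-type core, AGGAAG on either strand, in capitals. Each is the 250 bases before the RefSeq start on GRCm38.p6, 5′ to 3′ on the gene's strand. Kdr lies at chr5:75978456-75978705 (- strand), Flt1 at chr5:147726012-147726261 (- strand), Sele at chr1:164047984-164048233 (+ strand) and Selp at chr1:164115014-164115263 (+ strand).
Kdr: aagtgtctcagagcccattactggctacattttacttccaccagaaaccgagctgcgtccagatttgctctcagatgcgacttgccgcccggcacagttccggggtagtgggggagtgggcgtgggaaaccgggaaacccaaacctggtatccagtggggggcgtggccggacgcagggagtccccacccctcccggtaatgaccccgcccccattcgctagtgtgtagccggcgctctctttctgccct
Flt1: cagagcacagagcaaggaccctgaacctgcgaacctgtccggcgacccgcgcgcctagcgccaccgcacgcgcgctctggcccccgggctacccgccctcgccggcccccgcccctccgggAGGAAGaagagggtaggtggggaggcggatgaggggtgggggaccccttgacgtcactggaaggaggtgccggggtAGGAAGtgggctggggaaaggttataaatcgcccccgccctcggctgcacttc
Sele: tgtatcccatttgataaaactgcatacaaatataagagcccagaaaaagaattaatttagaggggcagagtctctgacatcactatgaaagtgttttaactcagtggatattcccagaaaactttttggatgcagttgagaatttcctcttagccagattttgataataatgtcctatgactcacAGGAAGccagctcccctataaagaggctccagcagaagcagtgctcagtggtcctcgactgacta
Selp: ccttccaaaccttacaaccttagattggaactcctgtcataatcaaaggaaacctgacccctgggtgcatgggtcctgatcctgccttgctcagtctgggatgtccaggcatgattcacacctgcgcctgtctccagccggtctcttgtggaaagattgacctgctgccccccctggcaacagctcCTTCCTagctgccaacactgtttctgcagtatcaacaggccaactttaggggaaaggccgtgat

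The Flt1 window held 2 matches, the Sele and Selp windows 1 each and the Kdr window 0. The RefSeq table gave 23 promoter windows, here with 50 further bases past the start, for 18 of the 35 members. AGGAAG was in 13 of these 23 windows, or 56.5%, and in 35.4% of all 32851 windows. The longer ETS motif CCGGAAGT, which does not contain AGGAAG, was in 0 of the 23 and in 3.89% of all. A match describes the letters and is no evidence of binding.

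Of the 35 members, 26 had a count in every library, and 29 passed the filter on low counts and were tested. The 6 that did not pass were Aplnr, Cldn5, Gpihbp1, Sox7, Sox17 and Sox18. Among all 17316 genes tested by edgeR, 0 passed an adjusted p of 0.05 (0.0%), and 0 of the 29 members did. At an unadjusted p under 0.05 stood 6.98% of all genes and 0 members, with Vwf the nearest to it. DESeq2 called 1.65% of genes and 0 of the 31 members for which it gave an adjusted p, with 0.304 the smallest. In 3.91% of genes the genotypes did not overlap, and in 0 members.

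The fold changes split almost evenly. 14 of 29 members were lower in SS, against 51% of all genes tested, and their median log2 fold change was 0.04, against -0.01 for all genes. The balance depended on the libraries kept. Without SS1, 22 of 29 were lower, as 8 members passed from above to below 0 and 0 the other way. Leaving out SS1 alone keeps SA1 and SA2 in SA. Without SA1, SA2 and SS1 together, 12 of 28 were lower, with a median of 0.44. SS1 was the highest library for 11 of the 29, against 8.22% of all genes. SA2 was the highest for 6, SA1 for 5, SS2 for 3, SA4 and SS4 for 2 each, and SA3 and SS3 for 0. In 13 of the 29, SA1, SA2 and SS1 were the 3 highest libraries, as in 8.05% of all genes, and these 13 were Kdr, Flt1, Tek, Bmx, Pecam1, Cdh5, Icam2, Sele, Selp, Stab1, Stab2, Plvap and Erg.

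**Figure D1:**
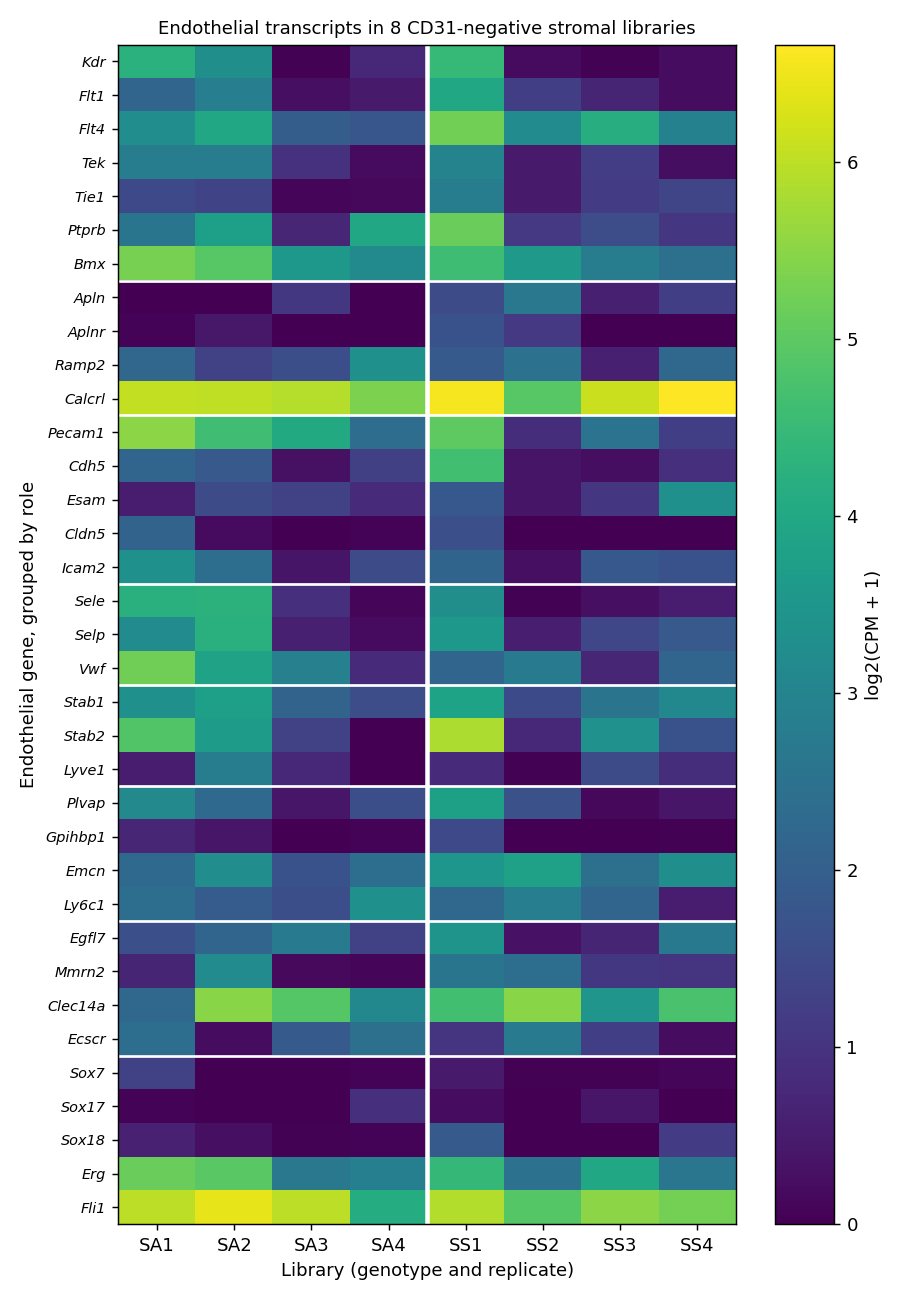
Level of each of the 35 endothelial genes (rows, grouped by role with white lines) in the 8 libraries (columns, SA left and SS right), as log2(CPM + 1) in colour. SA1, SA2 and SS1 are the brightest columns for Kdr, Sele, Selp, Stab2 and Erg, while Calcrl and Fli1 are bright in every column.

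Pan-leukocyte and neutrophil markers were high in the same libraries, and other blood cell lists less uniformly. That SA1, SA2 and SS1 are rich in blood cell transcripts was known from earlier results of these data. The leukocyte and neutrophil counts below therefore describe these libraries and are no separate finding. Of 15 pan-leukocyte markers, 13 had SA1, SA2 and SS1 as their 3 highest libraries, and their summed level was 4476, 5120, 1643 and 824.3 CPM in SA1 to SA4 and 3044, 478.1, 1283 and 379.9 in SS1 to SS4. None of the 15 was at 0 in any library, and Lcp1, an actin-bundling protein of leukocytes, had the highest mean CPM, by which the leading gene of each list below was chosen. SS1 thus stood below SA1 and SA2 in leukocyte markers and above both in the summed endothelial members, at 552.7 CPM against 437.8 and 443.6. The part of blood cells in the endothelial values was not tested.

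The 3 libraries were also the highest ones for 11 of 14 neutrophil markers, led by S100a9, with sums of 6056 to 34990 CPM in SA and 1348 to 17140 in SS. For B cell markers, led by Ebf1, which stroma also makes, this was so in 4 of 10, with sums of 468.3 to 650.9 in SA and 342.5 to 393.3 in SS. Ebf1 alone ran from 285.2 to 409.9 CPM in SA and 277.5 to 384.4 in SS, and the other 9 genes summed to 58.4 to 293.2 in SA and 3.19 to 65.0 in SS. Erythroid markers, led by Slc4a1, gave 3 of 9, with sums of 679.6 to 1260 in SA and 301.4 to 1132 in SS. For macrophage and monocyte markers, led by Vcam1, which stroma also makes, it was 3 of the 14 tested. Their sums were 1122 to 1922 in SA and 1086 to 2319 in SS. Vcam1 alone ran from 819.9 to 1021 CPM in SA and 908.6 to 1407 in SS. It made up a large part of each sum, so these sums do not show how the other genes of the list varied. Stem and progenitor markers, led by Meis1, gave 1 of 10, with sums of 65.1 to 105.6 in SA and 61.6 to 85.5 in SS. The stromal markers, led by Cxcl12, gave 0 of 12, with sums of 14980 to 32540 in SA and 22510 to 31910 in SS.

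As a sum, megakaryocyte markers followed another order. Their sum was 324.3, 412.1, 28.7 and 7.73 CPM in SA1 to SA4 and 12.7, 12.5, 15.2 and 42.1 in SS1 to SS4, with Ppbp the highest. The sum was high in SA1 and SA2 and low in SS1. SA1, SA2 and SS1 were the 3 highest libraries for 2 of the 10 megakaryocyte markers tested. Of all 12, 5 were at 0 in some library. Pericyte and smooth muscle markers, led by Rgs5, had SA1, SA2 and SS1 as the 3 highest in 0 of 13, with sums of 1082 to 1479 CPM in SA and 2038 to 7416 in SS, the last in SS4.

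**Figure D2:**
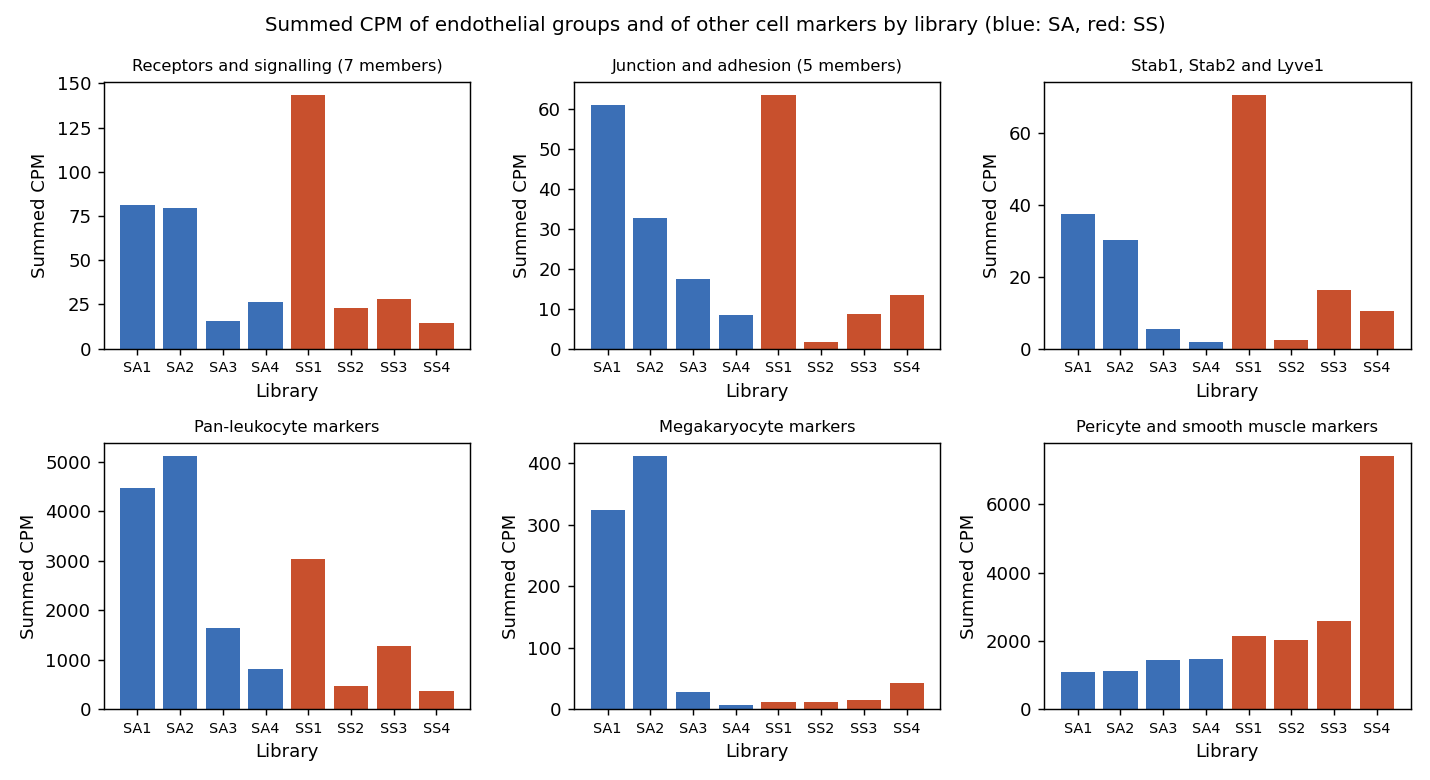
Summed CPM in each library of 3 of the 8 endothelial role groups (top: receptors and signalling, junction and adhesion, and the scavenger receptors Stab1, Stab2 and Lyve1) and of pan-leukocyte, megakaryocyte, and pericyte and smooth muscle markers (bottom), with blue bars for SA and red bars for SS. These 3 groups peak in SS1, where megakaryocyte markers sum to 12.7 CPM.

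Of the 8 role groups, 4 had their highest sum in SS1: receptors, junction genes, scavenger receptors and the capillary and sinusoidal surface genes. The selectin group was highest in SA1 at 62.5 CPM, the transcription factors and the regulators of vessel growth in SA2 at 114.2 and 55.9, and the apelin and adrenomedullin genes in SS4 at 105.5.

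The growth factor receptors and their partners summed to 15.4 to 81.4 CPM in SA and 14.4 to 143.4 in SS, with SS1 the highest for 6 of the 7. Kdr, the main VEGF receptor of endothelium (VEGFR2), was measured at 18.1, 9.03, 0.0335 and 0.699 CPM in SA1 to SA4 and at 21.2, 0.145, 0.0353 and 0.161 in SS1 to SS4. SA1, SA2 and SS1 held nearly all of its reads, with 260 to 602 counts each against 1 to 19 in the other 5, and the genotypes overlapped across the whole range. The log2 ratio of SS to SA was -0.37 (SE 1.83, adjusted p = 0.984), and -5.88 without SS1. Flt1, the VEGF receptor that also acts as a decoy, held 5 to 427 counts, with SS1 the highest and SS4 the lowest. Its range was 0.201 to 6.18 CPM in SA and 0.161 to 15.0 in SS.

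Flt4, the receptor for VEGF-C that marks lymphatic and sinusoidal endothelium (VEGFR3), gave 8.61, 14.9, 2.88 and 2.43 CPM in SA and 36.8, 8.22, 16.7 and 6.67 in SS. Unlike Kdr it was well above the floor in all 8 libraries, and the groups overlapped. On the log2 scale, SS over SA was 1.25 (SE 0.73, adjusted p = 0.754), with 0.55 without SS1 and 1.88 without SA2. Tek, the angiopoietin receptor TIE2, ranged from 0.147 to 5.98 CPM in SA and from 0.194 to 6.83 in SS (4 to 194 counts). Tie1, its co-receptor, ranged from 0.0669 to 1.77 CPM in SA and from 0.398 to 6.06 in SS (2 to 172 counts). Both were highest in SS1 and overlapped between genotypes.

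Ptprb, the phosphatase VE-PTP that restrains TIE2, stood at 5.0, 12.6, 0.636 and 14.7 CPM in SA and 34.2, 1.16, 1.98 and 1.06 in SS. SS1 was far above the other SS libraries and SA4 was the highest SA library, which was not so for Kdr. Its log2 fold change was 0.22 (SE 1.2, adjusted p = 0.986), and -2.55 without SS1. Bmx, a TEC-family kinase of arterial endothelium and myeloid cells, was found at 38.4, 29.5, 10.7 and 7.91 CPM in SA and 23.3, 11.1, 6.11 and 4.55 in SS. It was above 4 CPM in every library, with SA1 and SA2 the highest and overlap between the genotypes. By edgeR, the log2 fold change was -0.94 (SE 0.65, adjusted p = 0.784).

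Among the peptide receptors, Calcrl was the member with the smallest ratio of its highest to its lowest library. It encodes the receptor for adrenomedullin and CGRP and gave 65.5, 63.9, 60.1 and 39.9 CPM in SA and 94.7, 29.7, 68.7 and 100.5 in SS. SS2 was the lowest and SS4 the highest, so the high libraries were not those of Kdr, and the groups overlapped. The fitted log2 fold change was 0.36 (SE 0.35, adjusted p = 0.854). Ramp2, the partner that makes Calcrl an adrenomedullin receptor, held 14 to 250 counts and was highest in SA4. Calcrl reads outnumbered Ramp2 reads by 4.34 in SA4 and by 138.8 in SS3, the latter on only 14 Ramp2 counts. Vps25 overlaps Ramp2 on the same strand, so reads of the 2 genes may not be fully separated. Apln, the apelin ligand of tip cells, had 0 counts in SA1, SA2 and SA4 and 33 in SA3, against 53, 149, 14 and 42 in SS1 to SS4. Its groups overlapped, and the adjusted p was 0.755. Its receptor Aplnr had 62 counts in SS1, 32 in SS2, 10 in SA2, 1 in SA1 and 0 in the other libraries, so it was not tested.

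The junction genes include the gene of the sort marker itself. Pecam1 (chr11:106654217-106750628, - strand, GENCODE annotation of GRCm38) encodes CD31, which platelets and many leukocytes also carry. It was measured at 44.9, 23.8, 15.4 and 4.23 CPM in SA and 31.4, 0.833, 4.77 and 1.35 in SS. SA1 and SS1 were the highest, SS2 and SS4 the lowest, and the groups overlapped. The log2 fold change was -1.2 (SE 1.06, adjusted p = 0.833), and -3.25 without SS1.

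Cdh5 (chr8:104101625-104144511, + strand) encodes VE-cadherin, which is far more restricted to endothelium, and it was singled out after its values were seen. It gave 3.5, 2.64, 0.234 and 1.40 CPM in SA and 24.1, 0.290, 0.177 and 0.903 in SS. SS1 alone held 683 counts, while SA3, SS2 and SS3 had 7, 8 and 5, close to the floor. The log2 ratio of SS to SA was 1.71 (SE 1.46, adjusted p = 0.828), and it was -2.07 without SS1. DESeq2 gave no adjusted p for it.

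CD31 and VE-cadherin transcripts did not keep 1 ratio. Pecam1 reads per Cdh5 read were 12.8 in SA1, 9.0 in SA2, 65.9 in SA3 and 3.03 in SA4, and 1.31, 2.88, 27.0 and 1.5 in SS1 to SS4. Pecam1 was thus measured in SA3 and SS3, at 461 and 135 counts, with Cdh5 near the floor, while the ratio was lowest in SS1. Set against the leukocyte gene Ptprc, Pecam1 gave 0.0600, 0.0323, 0.0739 and 0.0340 reads per read in SA and 0.0630, 0.0154, 0.0232 and 0.0272 in SS. What cells the Pecam1 reads came from was not tested.

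Of the other junction genes, Icam2, a ligand for leukocyte integrins, ranged from 0.301 to 9.10 CPM in SA and from 0.217 to 3.45 in SS (6 to 242 counts). Esam, a tight junction adhesion molecule also found on stem cells and platelets, held 8 to 283 counts and was highest in SS4. Cldn5, a claudin of tight endothelial barriers, had 89 counts in SA1, 60 in SS1, 4 in SA2, 1 in SA4 and 0 elsewhere, and was not tested.

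**Figure D3:**
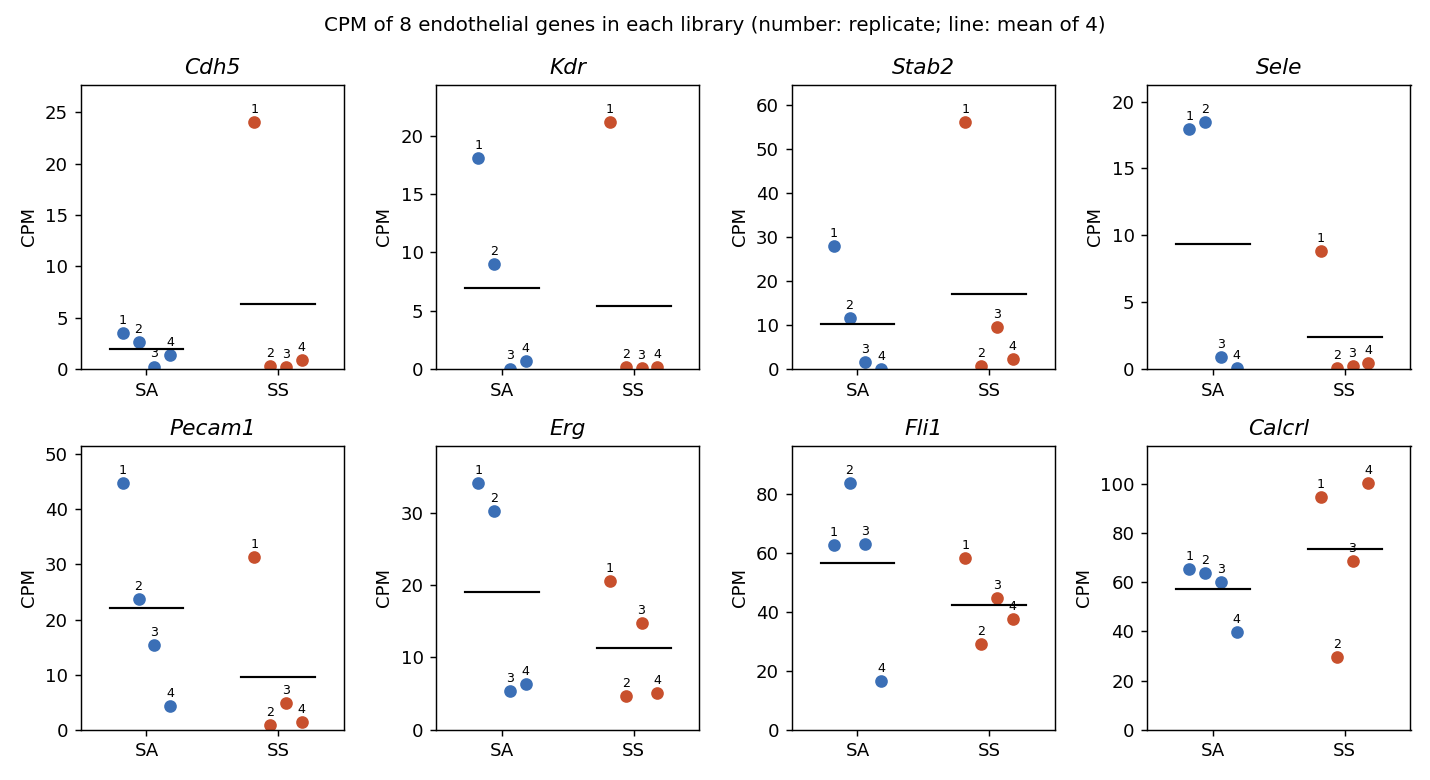
CPM of 8 endothelial genes in each library, with SA in blue and SS in red, the replicate number above each point and a line at the mean of 4. Cdh5, Kdr, Stab2 and Sele are at 9.44 CPM or less in SS2, SS3 and SS4, while Calcrl and Fli1 are at 16.5 CPM or more in all 8.

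The 3 genes of selectins and Weibel-Palade bodies, the storage granules of endothelium, all had fold changes below 0, and none passed the test. Sele, the E-selectin that leukocytes and progenitors roll on, was at 17.9, 18.5, 0.904 and 0.0736 CPM in SA and 8.84, 0.0362, 0.212 and 0.451 in SS. SA1, SA2 and SS1 carried it, the other 5 libraries were under 1 CPM, and the groups overlapped. On the log2 scale, SS over SA was -1.97 (SE 1.66, adjusted p = 0.826), and -5.29 without SS1.

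Selp, the P-selectin that platelets also store, was at 8.35, 17.7, 0.502 and 0.147 CPM in SA and 10.7, 0.471, 1.70 and 2.61 in SS. SA2 was the highest and SA4 the lowest, so SA spanned all SS values. Its log2 fold change was -0.78 (SE 1.31, adjusted p = 0.932), and 0.38 without SA2. Vwf encodes von Willebrand factor, made by endothelium and megakaryocytes. It gave 36.2, 13.4, 6.53 and 0.736 CPM in SA and 3.49, 5.54, 0.636 and 3.51 in SS. SA1 to SA3 stood above every SS library and SA4 among the lowest. By edgeR, the log2 fold change was -2.11 (SE 0.99, adjusted p = 0.723). It was -1.09 without SA1 and -0.18 without SA1, SA2 and SS1.

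Vwf was the only selectin-group gene that was not high in SS1. Pf4, the platelet chemokine of megakaryocytes, was chosen after its values were seen and was at 143.3, 49.9, 7.20 and 3.79 CPM in SA and 1.76, 5.83, 1.34 and 11.7 in SS. Vwf reads per Pf4 read were 0.253, 0.269, 0.907 and 0.194 in SA1 to SA4 and 1.98, 0.950, 0.474 and 0.300 in SS1 to SS4. Whether the Vwf reads came from megakaryocytes was not tested.

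The scavenger receptors of sinusoidal and lymphatic endothelium summed to 1.99 to 37.6 CPM in SA and 2.53 to 70.6 in SS. Stab2 clears hyaluronan and marks sinusoids. It was measured at 27.9, 11.6, 1.47 and 0 CPM in SA and 56.1, 0.688, 9.44 and 2.19 in SS. SS1 held 1593 counts and SA4 none, which allows up to 3 counts, and the groups overlapped. The fitted log2 fold change was 0.74 (SE 1.51, adjusted p = 0.951), and -1.32 without SS1. Stab2 reads per Kdr read were 1.54 in SA1, 1.29 in SA2 and 2.65 in SS1, which held the most of both. They were 4.75 in SS2 and 13.6 in SS4, on only 4 and 5 Kdr counts, while SA3 and SS3 had 1 Kdr count each and SA4 had no Stab2 count.

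Stab1, which macrophages share with sinusoids, was at 9.25, 12.5, 3.35 and 1.99 CPM in SA and 13.7, 1.81, 4.88 and 7.58 in SS. It was measured in all 8 libraries over a narrower range than Stab2, with overlap. The log2 fold change was 0.04 (SE 0.77, adjusted p = 0.995), the smallest change of the members tested. Lyve1, the hyaluronan receptor of lymphatics and some macrophages, held 174 counts in SA2 and 0 to 55 in the others.

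The capillary and sinusoidal surface genes had no common pattern. Emcn, endomucin of sinusoidal and venous endothelium, was at 3.83, 8.55, 2.21 and 4.27 CPM in SA and 10.2, 13.0, 4.52 and 9.0 in SS. SS2 was the highest, although SS2 had the lowest Pecam1 and almost no Kdr, and the groups overlapped. The log2 ratio of SS to SA was 0.96 (SE 0.60, adjusted p = 0.766). Plvap, which forms the diaphragms of fenestrae and caveolae, ranged from 0.335 to 7.86 CPM in SA and from 0.106 to 12.9 in SS (3 to 366 counts). Ly6c1, whose near-identical neighbour Ly6c2 is a monocyte gene and may share reads with it, held 13 to 248 counts. Gpihbp1, the capillary anchor of lipoprotein lipase, had 50 counts in SS1, 17 in SA1, 9 in SA2, 1 in SA4 and SS4 and 0 elsewhere.

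Among the regulators of vessel growth, Clec14a, a C-type lectin receptor that binds Mmrn2 at the endothelial surface, was the highest per kb. It was found at 3.68, 43.9, 28.8 and 7.65 CPM in SA and 24.1, 43.9, 10.1 and 25.8 in SS. SA2 and SS2 were the highest and SA1 the lowest, an order unlike that of Cdh5, and the groups overlapped. On the log2 scale, SS over SA was 0.30 (SE 0.70, adjusted p = 0.958). Mmrn2, an extracellular matrix glycoprotein, held 2 to 238 counts, with SA2 the highest. Egfl7, a secreted factor whose locus overlaps a microRNA gene on its own strand, held 7 to 279 counts, with SS1 the highest. Ecscr, a regulator of endothelial migration and apoptosis, held 5 to 159 counts, with SS2 the highest.

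The transcription factors divided by family. Erg, an ETS factor of endothelium and of stem cells, was at 34.1, 30.3, 5.39 and 6.37 CPM in SA and 20.5, 4.71, 14.7 and 5.09 in SS. It was present in all 8 libraries, the highest in SA1 and SA2, and overlapped between genotypes. Its log2 fold change was -0.76 (SE 0.72, adjusted p = 0.844). Fli1, its relative that blood cells also use, was at 62.5, 83.8, 62.9 and 16.5 CPM in SA and 58.2, 29.1, 44.7 and 37.5 in SS. SA4 was the lowest, SA2 the highest, and the groups overlapped. By edgeR, the log2 fold change was -0.41 (SE 0.43, adjusted p = 0.864), and several unnamed gene models lie within Fli1 on its strand, so some reads may be theirs.

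The SOXF factors, which act together in vessel formation, had few reads. Sox18 had 77 counts in SS1, 38 in SS4, 14 in SA1 and 6 or fewer elsewhere. Sox7 had 40 counts in SA1, 11 in SS1 and 2 or fewer elsewhere. Sox17, a factor of arterial endothelium, had 24 counts in SA4, 9 in SS3, 5 in SS1, 1 in SA1 and 0 elsewhere.

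Between genes, levels were set against exon length. Mean CPM per kb over the 8 libraries was 14.2 for Fli1 and 13.4 for Calcrl, then 5.32 for Bmx, 5.14 for Clec14a, 4.37 for Erg and 2.54 for Pecam1. It was 0.987 for Cdh5, 0.684 for Kdr and 0.0371 for Sox17, the lowest. Pdgfra, a gene of the sort gate, had 38.0 on the same scale. The spread over libraries was wide beside these means: Kdr ran from 0.00371 to 2.35 CPM per kb, so neighbours in this order were not separated beyond it.

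**Figure D4:**
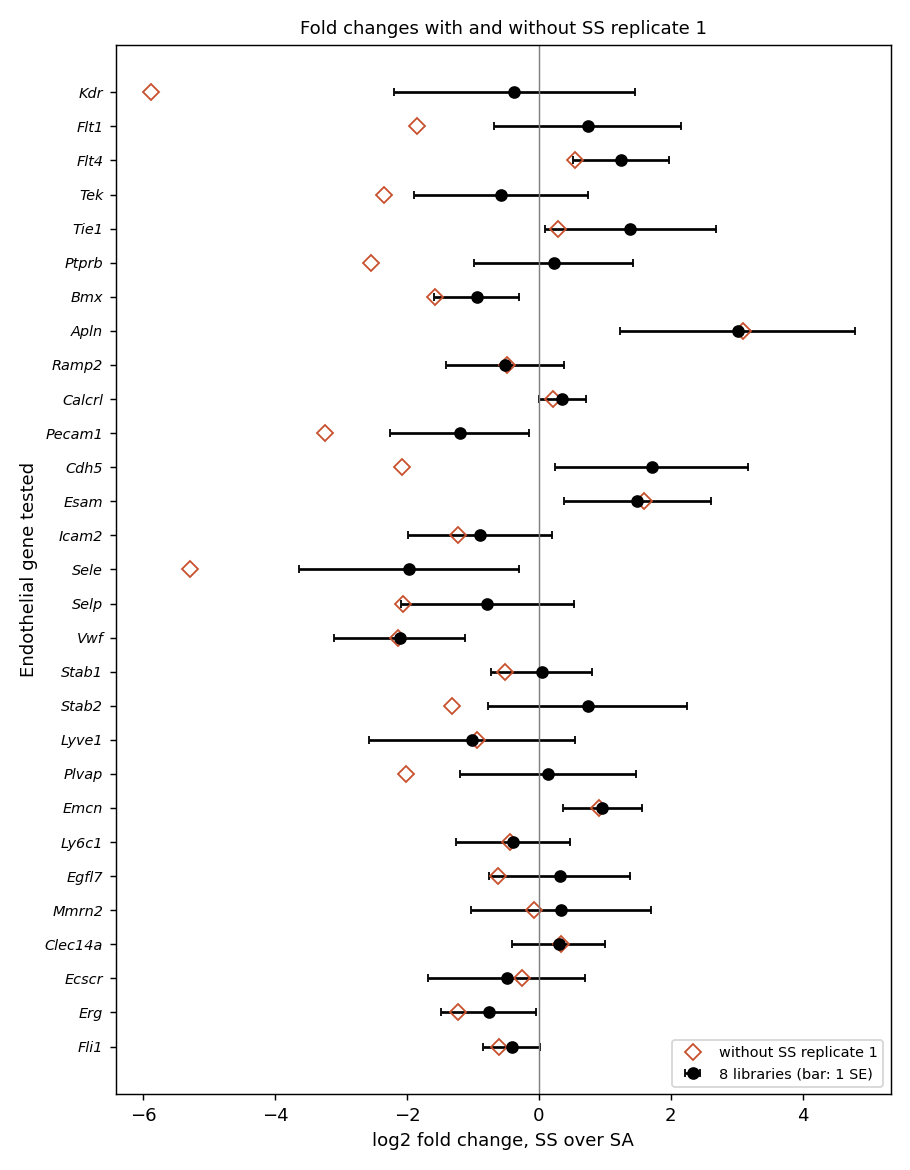
Log2 fold change of SS over SA for the 29 members tested, with all 8 libraries (black points, bars of 1 SE) and without SS1 (open diamonds). Cdh5, Ptprb and Stab2 lie above 0 with SS1 and below 0 without it, while Calcrl, Emcn and Clec14a keep their side.

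A further list of 44 endothelial genes that shares none with the members was read beside them. Of 38 tested, 25 were higher in SS and 13 lower, against 51% lower among all genes, with a median log2 fold change of 0.35, and 0 passed edgeR's adjusted p. 5 of the 38 had an unadjusted p under 0.05, all of them higher in SS, against 6.98% of all genes in either direction. DESeq2 called 2 of the 40 with an adjusted p, F8 and Tm4sf1, against 1.65% of all genes. The genotypes did not overlap in 3 of the 38, against 3.91% of all genes. The count lower in SS was 20 without SS1 and 8 without SA2. SA1, SA2 and SS1 were the 3 highest libraries in 5 of the 38. The lean toward SS was not particular to this list. Of the stromal markers 11 of 12 were higher in SS, and of the pericyte and smooth muscle markers 11 of 13. Of the macrophage and monocyte markers, 8 of 14 were higher. All 15 pan-leukocyte, 14 neutrophil and 10 B cell markers were lower in SS, as were the 10 megakaryocyte markers tested. The cause of these directions was not tested.

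F8 encodes coagulation factor VIII, which endothelium, mainly sinusoidal, secretes. It was at 8.95, 5.87, 6.43 and 3.61 CPM in SA and 27.3, 20.9, 23.5 and 18.4 in SS. Every SS library was above every SA library, and SS1 did not stand apart from SS2 and SS3 as it did for Cdh5. The fitted log2 fold change was 1.86 (SE 0.40), with an adjusted p of 0.411 by edgeR and 0.000123 by DESeq2.

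Tm4sf1, a tetraspanin-like protein of endothelium and mesenchymal cells, was at 16.5, 8.96, 13.7 and 21.01 CPM in SA and 31.7, 43.4, 39.1 and 48.95 in SS. Its genotypes did not overlap either. The log2 fold change was 1.44 (SE 0.33), with an adjusted p of 0.520 by edgeR and 0.00274 by DESeq2. The call for both genes therefore rests on the choice of test.

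Fabp4, a fatty acid carrier of capillaries and adipocytes, was at 40.3, 41.1, 13.0 and 23.7 CPM in SA and 57.9, 27.9, 54.4 and 359.1 in SS. SS4 was far above the rest, and SS4 was also the library with the highest pericyte sum. The log2 ratio of SS to SA was 2.08 (SE 0.74, adjusted p = 0.695), and 0.67 without SS4. Gja4, connexin 37 of arterial endothelium and mural cells, ranged from 0.208 to 5.08 CPM in SA and from 3.88 to 24.2 in SS, again with SS4 the highest. On the log2 scale, SS over SA was 2.49 (SE 0.94, adjusted p = 0.695).

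The highest of the further genes by mean CPM were Esm1, Adgrf5, Nrp1 and Ets1. Esm1, endocan, which tip cells secrete, ran from 455.8 to 952.9 CPM in SA and from 686.5 to 1135 in SS. Adgrf5, an adhesion receptor, ran from 246.5 to 780.0 and from 574.4 to 936.9. Nrp1, the VEGF and semaphorin co-receptor that stroma also carries, ran from 121.0 to 290.4 and from 203.9 to 372.7. Ets1, an ETS factor of many lineages, ran from 55.5 to 152.7 and from 96.2 to 114.7. SA2 was the lowest library for the first 3 of these, so they did not follow Kdr and Cdh5. Mean CPM per kb was 373.4 for Esm1 and 64.9 for Adgrf5, against 0.987 for Cdh5. What cells the Esm1 and Adgrf5 reads came from was not tested.

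The ligands and partners of the members include growth factors, peptide ligands, receptor partners and selectin ligands, from stroma, leukocytes and other cells. Of 19 in the table, 15 were tested, 9 were higher in SS and 6 lower, with a median log2 fold change of 0.45, and 0 passed edgeR or DESeq2. 1 of the 15 had an unadjusted p under 0.05, a share near the 6.98% of all genes. Svep1, a matrix protein that binds angiopoietins, was at 138.7, 50.9, 246.5 and 226.8 CPM in SA and 272.8, 373.2, 326.1 and 295.9 in SS. The genotypes did not overlap, as in 3.91% of all genes, and SA2 was the lowest. Its log2 fold change was 0.94 (SE 0.40, adjusted p = 0.695).

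Lpl, the lipoprotein lipase that Gpihbp1 anchors, ran from 599.9 to 1526 CPM in SA and from 1193 to 3393 in SS, with SS4 the highest. By edgeR, the log2 fold change was 0.83 (SE 0.38, adjusted p = 0.716). Angpt2, an angiopoietin ligand of Tek that is on both lists, ran from 21.6 to 66.9 CPM and from 53.9 to 127.3, with an adjusted p of 0.733. Vegfc, the ligand of Flt4, ran from 51.6 to 159.5 and from 124.1 to 211.9, with an adjusted p of 0.752. Cd44, an E-selectin ligand that leukocytes carry, was at 428.6, 525.1, 184.6 and 87.4 CPM in SA and 314.3, 79.9, 99.1 and 91.8 in SS. Its 3 highest libraries were those of the leukocyte markers, and its adjusted p was 0.752.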

How the data were processed

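RNA-seq was made from 16 samples, which are 8 mouse libraries each run on 2 lanes. Per gene symbol and library, the authors deposited raw counts, and also a normalized table that was not used here. Builds mm10 and GRCm38 and the tools STAR, featureCounts, bcl2fastq and DESeq2, without versions, are in the submitters' processing notes. No source used here gives the annotation or strandedness, so overlapping and antisense genes could not be separated.

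The deposited counts were tested with the robust quasi-likelihood F test of edgeR 4.0.16 (R 4.3.3), after TMM scaling and filterByExpr on genotype. P-values were adjusted by Benjamini-Hochberg over 17316 genes, with 0.05 as the threshold, and are edgeR's unless another tool is named, while limma 3.58.1 (voom) and DESeq2 1.42.0 were alternatives. CPM uses TMM-adjusted totals. The SE is the log2 fold change divided by the root of F. CPM per kb used the union of exons in GENCODE M21, and 91.5% of symbols matched it. Total counts ran from 24797857 to 31117007. The fit was tested on simulated data.

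The members and lists were chosen with earlier results of these data known, among them that SA1, SA2 and SS1 are rich in blood cell transcripts. Every member was named. Values in every library were given for Pecam1 and for members with a mean of at least 5 CPM or an unadjusted p under 0.05. Of the further endothelial genes and of the ligands, the 4 with the smallest p and the 4 with the highest mean CPM were named, and of each other list the highest gene.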

Additional observations from a re-analysis of the deposited data

Results flagged for a closer look

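In 6 of the 32 sets of 4 libraries examined, 1 library stood apart from the other 3 of its genotype, and in all 6 that library was SS1. For normally distributed values, chance gives such a gap in about 1 in 20 sets. Whether these CPM are normally distributed was not tested. The genes are also not independent, since they were measured in the same library. Cdh5 was included after its values were seen, and a high value in 1 library helps a gene reach the mean of 5 CPM. The 6 sets therefore cannot be weighed against the chance rate. SS1 held 24.06 CPM of Cdh5, 21.21 of Kdr, 34.17 of Ptprb, 56.12 of Stab2, 31.42 of Pecam1 and 8.842 of Sele. Transcripts of VE-cadherin, VEGFR2, VE-PTP, the sinusoidal receptor stabilin-2, CD31 and E-selectin were thus all outlying in the same SS library. The cause was not tested.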

How the results depend on the processing

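No member passed the threshold in any alternative, and 5 of the 16 members given with a fold change kept its sign in all 17 alternatives. Over all genes, DESeq2 called 319 and edgeR without the low-count filter 5, and 0 to 1 when leaving out each library. The median log2 fold change of the members was -0.29 with limma-voom and 1.14 with pan-leukocyte level as a covariate, under which 6 members and 7 further endothelial genes were lower in SS. Leaving out each library gave a median of -0.93 to 0.39, with 12 to 22 members and 8 to 20 further genes lower in SS.

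The replicate block changed no call, but gave a median of -0.33 and log2 fold changes of -0.75 for Ptprb, 0.74 for Selp and -0.39 for Cdh5. Deviations of same-numbered libraries correlated at 0.222, -0.15, -0.02 and 0.143. No pairing by number was seen, but small correlations of this kind cannot exclude one.

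Signs also turned for single genes. With limma-voom these were Ptprb (-0.68), Selp (0.25) and Cdh5 (-0.29). With the covariate they were Kdr (1.28), Ptprb (-0.050), Bmx (0.13), Sele (1.33), Selp (2.69), Erg (0.70), Fli1 (0.32) and Cd44 (0.14). Without SA1, SA2 and SS1 they were Ptprb (-2.45), Selp (2.28), Erg (0.47) and Cdh5 (-0.83), and Kdr could not be tested. Leaving out each library, log2 fold changes ran from -5.88 to 0.72 for Kdr, -2.55 to 0.66 for Ptprb, -2.06 to 0.38 for Selp, -0.51 to 0.53 for Stab1, -1.32 to 1.96 for Stab2, -0.070 to 0.96 for Clec14a and -2.07 to 2.16 for Cdh5. They kept their sign for Flt4 (0.55 to 1.88), Bmx (-1.58 to -0.52), Calcrl (0.17 to 0.62), Pecam1 (-3.25 to -0.59), Sele (-5.29 to -1.40), Vwf (-2.50 to -1.09), Emcn (0.71 to 1.42), Erg (-1.22 to -0.33), Fli1 (-0.72 to -0.16) and Lpl (0.45 to 1.02). The cause of these shifts was not tested. F8 and Tm4sf1 passed the threshold with DESeq2. Genes under about 10 counts in most libraries allow no statement on genotype at this depth.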
